A study of Mus musculus with 6 samples.

Results

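The fibril-forming collagen genes examined here were Col1a1, Col1a2, Col2a1, Col3a1, Col5a1, Col5a2, Col5a3, Col11a1, Col11a2 and Col24a1. They were picked by gene symbol, and all 10 were found among the 54189 features of the RNA-seq table of mouse Achilles tendon. RNA was taken from tendons at 4 weeks of age from 3 genotypes, with 1 RNA-seq library and 1 small RNA-seq library per genotype. Control mice were Dicer f/f, with both floxed alleles and no Cre. ScxHt mice were ScxCre/+ Knock In with intact Dicer (Dicer +/+). Dicer cKO mice were ScxCre/+ Knock In with Dicer f/f. Dicer cKO therefore shared the floxed alleles with Control and the Cre allele with ScxHt, in which Cre is expressed from the Scx locus and acts mainly in tendon and ligament cells. According to the paper, the knock-in can inactivate the Scx allele that carries it. ScxHt and Dicer cKO therefore also differ from Control in Scx, whose part in the collagen ratios was not tested. No genotype had a replicate. No test across mice could be made, and a difference between libraries could not be set against the spread between mice.

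Fibril-forming collagens are triple helices of alpha chains with a long uninterrupted collagenous domain, secreted as procollagens and assembled outside the cell into banded fibrils. Type I collagen, built from the products of Col1a1 and Col1a2, is the main protein of tendon. Type III collagen (Col3a1) mixes into the same fibrils and is prominent in young and healing tendon. Types V and XI are minor chains that sit inside fibrils, help to start their assembly and limit their diameter. Type II collagen (Col2a1) is the main fibril former of cartilage, and type XXIV (Col24a1) is a minor chain described mostly in bone and cornea.

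The transcripts of these genes are known for matches to the seed of miR-29, a miRNA family widely described as acting on matrix mRNAs. Because the processing of miRNAs depends on Dicer, the mature miR-29 sequences are shown first, as RefSeq gives them on GRCm38, with the shared seed (bases 2 to 8) in capitals.
mmu-miR-29a-3p: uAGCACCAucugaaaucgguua
mmu-miR-29b-3p: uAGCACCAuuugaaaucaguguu
mmu-miR-29c-3p: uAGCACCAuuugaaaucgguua

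The longest 3' UTR annotated for each gene was searched (GENCODE vM21, GRCm38, transcript strand only). The 8 letters TGGTGCTA, called an 8mer here, were found in 6 of the 10 genes. Of the 10952 genes above the count minimum that had a 3' UTR, 3.63% held this 8mer. The 7-letter match TGGTGCT, which every 8mer also holds, was the best match in Col11a1 and Col24a1. Col1a2 held only the weaker 7-letter match GGTGCTA, and Col11a2 held none of the 3. TGGTGCT, alone or within the 8mer, was thus present in 8 of 10 genes, against 17.0% of the 10952 genes above the count minimum that had a 3' UTR, and 13.5% of the 6207 of these whose UTR was as long as those of the 10 genes (438 to 2498 bases). The 8mers are printed with their surrounding bases, 5' to 3' on the transcript, because they mark which collagen chains hold the longest match. A match is a description of the letters and no evidence of a working site.
Col1a1, chr11:94952527-94952556, plus strand: gaaggaatttcTGGTGCTAtagaagctgag
Col2a1, chr15:97975670-97975699, minus strand: gtcctacacaaTGGTGCTAttctgtgtcaa
Col3a1, chr1:45348971-45349000, plus strand: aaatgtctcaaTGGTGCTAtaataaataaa
Col5a1, chr2:28038023-28038052, plus strand: cttgtctcttgTGGTGCTAtgtgtccggag
Col5a1, chr2:28038339-28038368, plus strand: ctgaatgtttgTGGTGCTAatctctgtgtg
Col5a2, chr1:45374954-45374983, minus strand: tcttttaatgaTGGTGCTAaaattatttct
Col5a3, chr9:20770492-20770521, minus strand: accaggcctttTGGTGCTAttcctttccat

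Col5a1 had the most matches, with 2 8mers and 2 further copies of TGGTGCT. Col5a3 had 1 8mer and 2 further copies, and Col11a1 had 2 copies, 256 and 306 bases after the stop codon. The 8mer of let-7 (CTACCTCA) was found in Col1a2, Col3a1 and Col5a2, and that of miR-135a (AAGCCATA) in Col3a1 and Col5a1. Of the 10952 genes, 3.83% held the let-7 8mer and 3.77% that of miR-135a. A 7-letter match to bases 2 to 8 was the best match in Col1a1 and Col24a1 for let-7, and in Col24a1 for miR-135a. Either match was held by 10.9% of the 10952 genes for let-7 and 15.7% for miR-135a. In small RNA-seq, Mir29a had 13829 reads in Control, 10302 in ScxHt and 7624 in Dicer cKO, a Dicer cKO/Control ratio of 0.632 (95% counting interval 0.614 to 0.650) and a ScxHt/Control ratio of 0.839 (0.818 to 0.861). The Dicer cKO/Control ratio was 0.825 (0.771 to 0.883) for Mir29c, and near 1 for Mir29b-1 and Mir29b-2, at 0.956 (0.831 to 1.10) and 0.967 (0.839 to 1.11). Both Mir29b loci give the same mature miR-29b-3p, so their reads could not be fully told apart and their ratios are not independent. In ScxHt/Control, Mir29b-1 and Mir29b-2 were above 1, at 1.22 (1.07 to 1.39) and 1.18 (1.03 to 1.34), and Mir29c was at 0.964 (0.903 to 1.03). The Dicer cKO/ScxHt ratios of the 4 loci lay between 0.740 and 0.842, each with an interval below 1. Of the 322 small RNA features with a mean normalized count above 15, 12.4% to 26.4% had still lower ratios. In Dicer cKO/Control, 5.69% of 334 features lay below Mir29a and 26.0% below Mir29c. For Mir29b-1 and Mir29b-2 these shares were 44.3% and 46.1%. The scaling used here sets the typical small RNA feature near 1, so a loss shared by most miRNAs would not show. Scaling to total counts raised the ratios to Control of all 4 loci by the same factor, as given for Mir29a at the end.

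RNA-seq counts added up to between 14959399 and 16244232 per library. The targeted gene, Dicer1, had 1919 reads in Control, 2025 in ScxHt and 1621 in Dicer cKO, a Dicer cKO/Control ratio of 0.877 (0.821 to 0.938). Counts over the whole gene cannot show whether the floxed part was missing. Scx, the gene whose locus carries Cre, had 1055, 686 and 371 reads. All 10 genes of a tendon fibroblast marker list were present in every library, from 371 reads for Scx in Dicer cKO to 111544 for Fmod in ScxHt. This list made up 1.19% of counts in Control, 1.48% in ScxHt and 0.639% in Dicer cKO. Markers of skeletal muscle were abundant, and 20 listed genes such as Ttn, Neb and Acta1 made up 6.52%, 3.73% and 11.3% of counts in the same order. In bulk tissue, fewer cells of a type and less RNA per cell cannot be told apart.

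The 10 collagen genes together held 12.9% of all counts in Control, 11.0% in ScxHt and 7.54% in Dicer cKO. The collagen share was thus lowest in the library with the largest muscle share, although ScxHt, with the smallest muscle share, did not have the largest collagen share. Ratios under a scaling that leaves muscle genes out are given beside the calls.

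**Figure D1:**
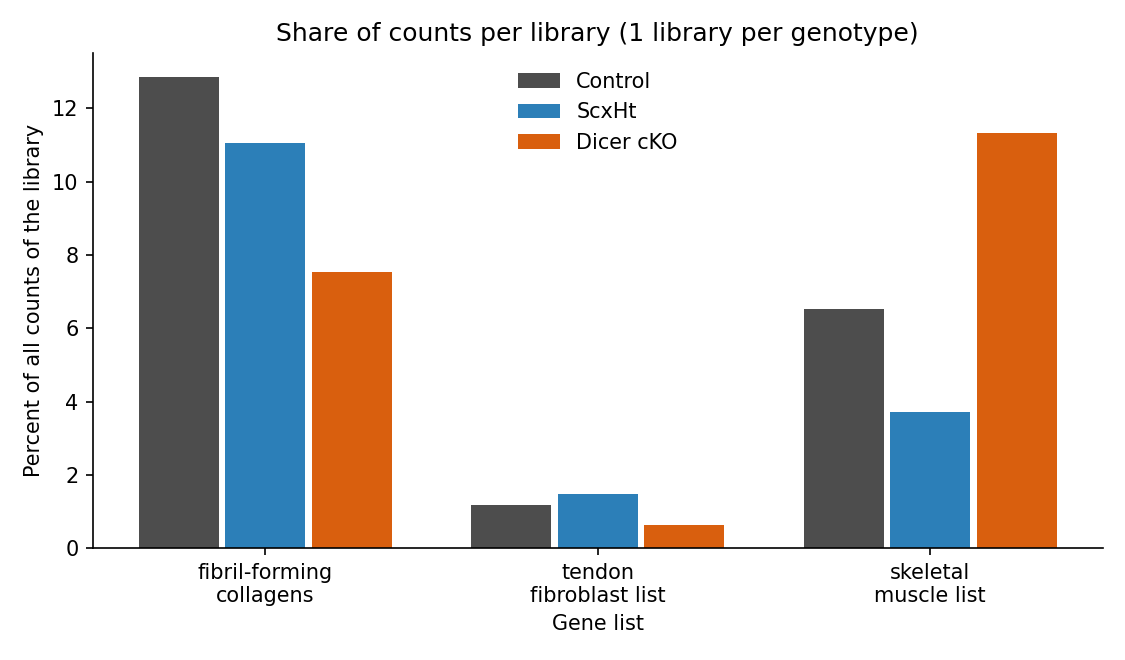
Percent of all RNA-seq counts of a library (vertical axis, from 0) held by the 10 fibril-forming collagen genes, by the 10 genes of the tendon fibroblast list and by the 20 genes of the skeletal muscle list, with 1 bar per library. The collagen genes go from 12.9% in Control to 7.54% in Dicer cKO, while the muscle list goes from 6.52% to 11.3%.

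Levels of different genes were compared as RPKM, reads scaled to gene length and library total, as deposited by the authors. The lengths behind these RPKM values matched all annotated exons of a gene merged, retained introns included, and not a single transcript. They came to 6562 bases for Col1a1 and 12425 for Col1a2, whose longest annotated transcripts are 5930 and 5348 bases. RPKM therefore puts Col1a2 low beside Col1a1. Comparisons of 1 gene between libraries do not depend on the length.

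Col1a1 (chr11:94936224-94953042, the alpha 1 chain of type I collagen) was the highest of the 10 in every library. It had 1261322 reads and 11832 RPKM in Control, 925996 reads and 8948 RPKM in ScxHt, and 658168 reads and 6704 RPKM in Dicer cKO. It had more reads than any other feature in Control and ScxHt and ranked 2 in Dicer cKO. Control was the highest and Dicer cKO the lowest of the 3.

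Col1a2 (chr6:4504814-4541544, the alpha 2 chain of type I collagen) followed, with 708695 reads and 3511 RPKM in Control, 658387 reads and 3360 RPKM in ScxHt, and 391822 reads and 2108 RPKM in Dicer cKO. Its order of libraries was that of Col1a1, but ScxHt lay closer to Control. Type I collagen chains pair in a fixed ratio in the protein, so the ratio of their transcripts within a library was also taken, a value that no scaling between libraries can change. Col1a1/Col1a2 was 3.37 in Control, 2.66 in ScxHt and 3.18 in Dicer cKO by RPKM. With the longest annotated transcript as the length it was 1.61, 1.27 and 1.51. ScxHt had the lowest ratio and Dicer cKO lay nearer to Control. A change of length multiplies the ratio alike in every library, so this order cannot depend on it.

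Col3a1 (chr1:45311538-45349706, the sole chain of type III collagen) had 56697 reads in Control, 81063 in ScxHt and 34511 in Dicer cKO, or 356, 524 and 235 RPKM. Here ScxHt was the highest and Dicer cKO the lowest. An annotated miRNA gene, Gm47302, shares 141 exon bases with Col3a1 on the same strand and had 2900, 3862 and 1545 reads of its own, so the reads of the pair could not be fully told apart.

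Among the type V chains, Col5a2 had 17432 reads in Control, 24570 in ScxHt and 11641 in Dicer cKO (112, 162 and 81.1 RPKM). Col5a1, the chain needed in every type V molecule, had 12893, 16233 and 6869 reads (93.5, 121 and 54.1 RPKM). Both followed the order of Col3a1, with ScxHt on top and Dicer cKO at the bottom. Col5a1 overlaps annotated antisense transcripts over 99 and 113 exon bases, and since the strand setting of the counting is not given in the sources used here, their reads cannot be told apart. Col5a3, a chain of restricted expression in other tissues, was much lower, with 1580 reads in Control, 2045 in ScxHt and 1583 in Dicer cKO (14.3, 19.0 and 15.5 RPKM). Control and Dicer cKO held nearly the same number of Col5a3 reads.

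Among the type XI chains, Col11a1 had 21735 reads in Control, 27157 in ScxHt and 15567 in Dicer cKO (105, 135 and 81.7 RPKM), the same order as Col3a1. Col11a2 had 7647, 5511 and 5822 reads (68.9, 51.2 and 57.0 RPKM). Unlike its partner chain, it was lowest in ScxHt. The cartilage collagen Col2a1, whose product also supplies a chain of type XI molecules in cartilage, had 985 reads in Control, 837 in ScxHt and 806 in Dicer cKO (6.56, 5.74 and 5.83 RPKM). Col11a1 thus stood 16.0 times above Col2a1 in Control, 23.5 times in ScxHt and 14.0 times in Dicer cKO. Of 10 cartilage markers in the table, Matn1 was at 0 in every library and Col9a1, Col9a2 and Col9a3 had at most 12 reads each, while Chad had 6389 to 17282 reads and Acan 2921 to 7003. Hapln1 had 1046 reads in Control, 1991 in ScxHt and 995 in Dicer cKO, Sox9 had 527, 400 and 130, and Matn3 had 70, 106 and 103.

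Col24a1 was the lowest of the 10 in each library, with 419 reads in Control, 282 in ScxHt and 415 in Dicer cKO (3.38, 2.35 and 3.64 RPKM). Of the bone markers, Spp1 had 5412 reads in Control, 9579 in ScxHt and 1506 in Dicer cKO, Ibsp had 2141, 3033 and 583, and Alpl had 95, 100 and 79. Bglap, Bglap2 and Mepe were at 0 throughout and Sp7 had 0, 3 and 0 reads. Col27a1, a further fibrillar collagen gene that is not one of the 10, had 1133 reads in Control, 1112 in ScxHt and 731 in Dicer cKO (5.35, 5.41 and 3.75 RPKM).

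By RPKM, the order from highest to lowest was Col1a1, Col1a2, Col3a1, Col5a2, Col11a1, Col5a1, Col11a2, Col5a3, Col2a1 and Col24a1 in Control, and the same in ScxHt. In Dicer cKO, Col11a1 and Col5a2 were level by RPKM, with a ratio of 1.01 whose counting interval (0.983 to 1.03) spanned 1. With the longest annotated transcript as the length, Col11a1 stood above Col5a2 in Dicer cKO, at 1.16 (1.13 to 1.18). By RPKM, Col11a2 stood just above Col5a1 in Dicer cKO, with a ratio of 1.05 (1.02 to 1.09). The ratios of other neighbours in this order were further from 1, with the next smallest being that of Col5a2 to Col11a1 in Control at 1.07 (1.04 to 1.09), which turned to 1.08 in favour of Col11a1 with the longest annotated transcript as the length. Col11a2 stood above Col5a1 in Dicer cKO by this length also, at 1.18 (1.14 to 1.22).

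**Figure D2:**
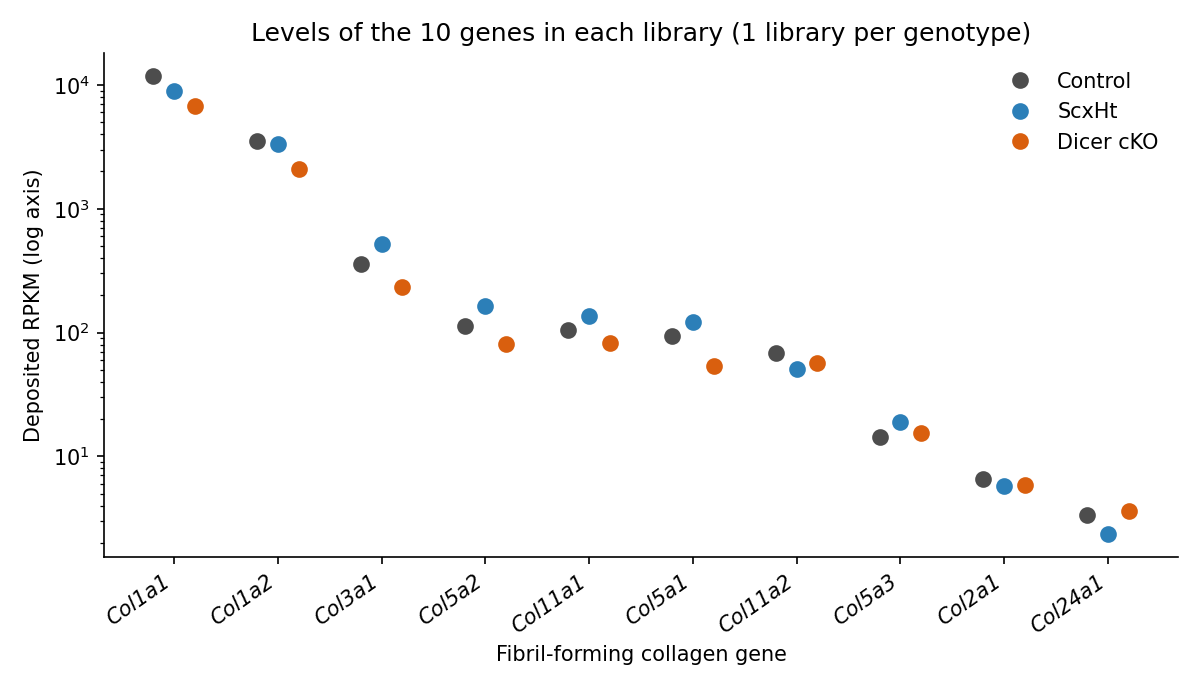
Deposited RPKM of the 10 genes (vertical axis, logarithmic), with 1 point per library, ordered by the Control level. Levels span from 11832 RPKM for Col1a1 to 3.38 for Col24a1 in Control, and the ScxHt points lie on top for Col3a1, Col5a2, Col11a1, Col5a1 and Col5a3.

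The makeup of the fibrillar collagen transcripts within a library was then compared. Of the summed RPKM of the 10 genes, type I chains held 95.3% in Control, 92.3% in ScxHt and 94.3% in Dicer cKO. Type III held 2.21%, 3.93% and 2.51% in the same order. Type V held 1.36%, 2.27% and 1.61%, and type XI 1.08%, 1.40% and 1.48%. Types II and XXIV each stayed under 0.1%, with 0.0624% or less for type II and 0.0390% or less for type XXIV. ScxHt thus had the largest share of types III and V. Both libraries with Cre had larger shares of types II, III, V and XI than Control, and a smaller share of type I. A share can rise because the rest of the sum is lower. The summed RPKM of type XI was 174 in Control, 186 in ScxHt and 139 in Dicer cKO. With the longest annotated transcript as the length, type III held 2.80% in Control, 4.79% in ScxHt and 3.16% in Dicer cKO. Type XI then held 1.13%, 1.46% and 1.52%. The order of the libraries was the same, but a length changes a gene alike in every library, so this is a weak check.

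**Figure D3:**
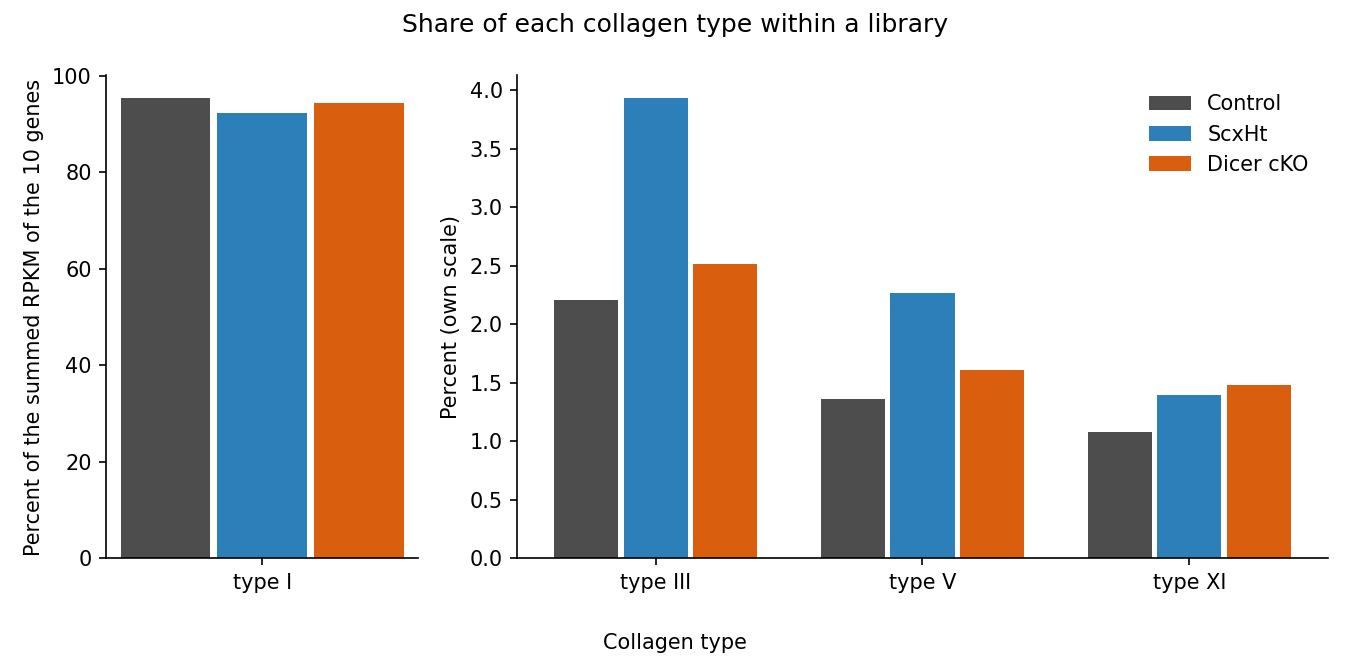
Percent of the summed RPKM of the 10 genes held by type I chains (left panel) and by types III, V and XI (right panel, own scale), with bars from 0 and 1 bar per library. Type I holds 92.3% to 95.3%, and the bar of ScxHt is the tallest for types III and V.

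Ratios between chains within a library showed where Dicer cKO differed from both libraries with intact Dicer. Col5a3/Col5a1 was 0.153 (95% counting interval 0.145 to 0.161) in Control, 0.157 (0.150 to 0.164) in ScxHt and 0.287 (0.272 to 0.304) in Dicer cKO. Col11a1/Col5a1 was 1.12 (1.10 to 1.15) and 1.11 (1.09 to 1.14) in Control and ScxHt, and 1.51 (1.47 to 1.55) in Dicer cKO. For both ratios the intervals of Control and ScxHt overlapped and Dicer cKO stood above them, with Col5a1 as the shared denominator. Col5a3 is also known from peripheral nerve and muscle. The 9 Schwann cell markers made up 0.0235% of counts in Control, 0.0305% in ScxHt and 0.0743% in Dicer cKO. Most of these reads in Control and ScxHt were from Pmp22, with 3096 reads in Control, 4103 in ScxHt and 4001 in Dicer cKO. Over the 7 markers with a mean normalized count above 50, the median Dicer cKO/Control ratio was 7.47. The part of Schwann cells in the Col5a3/Col5a1 ratio was not tested.

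Other chain ratios set ScxHt apart. Col11a1/Col11a2 was 1.52 (1.48 to 1.56) in Control, 2.64 (2.57 to 2.72) in ScxHt and 1.43 (1.39 to 1.48) in Dicer cKO. Col3a1/Col1a1 was 0.0301 in Control, 0.0585 in ScxHt and 0.0351 in Dicer cKO, and Col5a2/Col1a1 was 0.00946, 0.0182 and 0.0121. Both rest on Col1a1 in the denominator, which was lower in ScxHt than in Control. Col5a1/Col5a2 was lowest in Dicer cKO, at 0.836 in Control, 0.746 in ScxHt and 0.667 in Dicer cKO. Col5a2/Col3a1, a ratio of genes that lie close together on chromosome 1, differed less between libraries, at 0.315 (0.309 to 0.320), 0.310 (0.306 to 0.315) and 0.345 (0.338 to 0.353).

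Libraries were compared by the ratio of read counts after division by size factors of the 2 libraries, and a ratio above 1.67 was called higher and one below 0.60 lower where the mean normalized count (baseMean) was above 50. All 10 genes passed this minimum in each comparison. The intervals account for the sampling of reads alone, and reads amplified from 1 molecule count more than once, so they say nothing of the spread between mice.

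Dicer cKO/Control compares the 2 libraries with floxed Dicer alleles, of which the library labelled Dicer cKO also carries Cre. Of the 10 genes, 3 were lower and 0 higher, against 4.17% of 13504 features that were lower and 3.87% that were higher. The 3 were both type I chains and Col5a1. Col1a1 had a ratio of 0.542 (0.540 to 0.543), Col1a2 of 0.574 (0.572 to 0.576) and Col5a1 of 0.553 (0.537 to 0.570). Without mitochondrial features and the muscle list in the scaling, these ratios were 0.606, 0.642 and 0.618, and 0 of the 10 genes were past 0.60.

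A further 5 genes had intervals below 1 without passing the threshold. Their ratios were 0.632 (0.624 to 0.641) for Col3a1, 0.693 (0.677 to 0.710) for Col5a2, 0.744 (0.729 to 0.759) for Col11a1, 0.791 (0.764 to 0.818) for Col11a2 and 0.850 (0.773 to 0.934) for Col2a1. Col5a3 at 1.04 (0.970 to 1.12) and Col24a1 at 1.03 (0.896 to 1.18) had intervals that spanned 1. The 3 least abundant genes, Col5a3, Col24a1 and Col2a1, thus had the 3 highest ratios. The 10 genes had a median log2 ratio of -0.48, against -0.03 over all 13504 features. Col27a1 had a ratio of 0.670 (0.610 to 0.736).

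ScxHt/Control compares 2 libraries with intact Dicer, which differ in the floxed alleles and in the Cre knock-in. Of the 10 genes, 0 were lower and 0 higher, against 4.73% and 3.05% of 13563 features. The genes lay on both sides of 1. Col3a1 at 1.37 (1.36 to 1.38), Col5a2 at 1.35 (1.32 to 1.38), Col5a3 at 1.24 (1.16 to 1.33), Col5a1 at 1.21 (1.18 to 1.23) and Col11a1 at 1.20 (1.18 to 1.22) had intervals above 1. Col1a2 at 0.890 (0.887 to 0.893), Col2a1 at 0.814 (0.742 to 0.894), Col1a1 at 0.704 (0.702 to 0.705), Col11a2 at 0.691 (0.667 to 0.715) and Col24a1 at 0.645 (0.553 to 0.752) had intervals below 1. All type III and type V chains were on the upper side and both type I chains on the lower side. The median log2 ratio was 0.05, against 0.02 over all features. Col1a1 was thus below 1 in a library with intact Dicer also, at 0.704 beside 0.542 in Dicer cKO/Control. Macrophage markers such as Mrc1 and Csf1r were also above 1 in ScxHt, with 6 of 7 called higher and a share of 0.0337% of counts against 0.0183% in Control. Of 20 skeletal muscle genes, 9 were called lower and 4 higher. All 6 endothelial genes had intervals below 1, with a median ratio of 0.694. The part of these cell types in the collagen ratios was not tested.

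Dicer cKO/ScxHt compares the 2 libraries that carry Cre. Of the 10 genes, 3 were lower and 0 higher, against 5.68% and 7.67% of 13555 features. The 3 were Col5a1 at 0.466 (0.453 to 0.480), Col3a1 at 0.469 (0.463 to 0.475) and Col5a2 at 0.522 (0.511 to 0.534). Without mitochondrial features and the muscle list in the scaling, these ratios were 0.499, 0.502 and 0.558, all still called, and Col24a1 was called higher at 1.73. Type I chains were not among them, with Col1a2 at 0.656 (0.653 to 0.658) and Col1a1 at 0.783 (0.781 to 0.786). Col11a1 had a ratio of 0.632 (0.619 to 0.644) and Col5a3 of 0.853 (0.798 to 0.911). Col2a1 at 1.06 (0.962 to 1.17) had an interval that spanned 1, and Col11a2 at 1.16 (1.12 to 1.21) and Col24a1 at 1.62 (1.39 to 1.89) lay above 1. The median log2 ratio was -0.48, against -0.03 over all features. Between these libraries 17 of 20 skeletal muscle genes were called higher, with a median ratio of 2.39, as were 6 of 7 Schwann cell, 5 of 5 erythroid and 2 of 6 endothelial genes (Cdh5 and Kdr), while 7 of 7 macrophage genes were lower, with a median ratio of 0.490. Their part in the collagen ratios was not tested beyond the scaling without the muscle list and mitochondrial features.

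The comparisons of Dicer cKO with Control and with ScxHt share the Dicer cKO library, so they are not independent of each other. Col5a1 was called lower in Dicer cKO against each of the other libraries. Col1a1, Col1a2, Col3a1, Col5a2 and Col11a1 had ratios below 1 in both comparisons and passed the threshold in 1 of them or in none. Col5a3, Col2a1, Col11a2 and Col24a1 did not have intervals below 1 in both. Across the scalings tried, each of the 10 genes kept its side of 1 in all 3 comparisons.

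**Figure D4:**
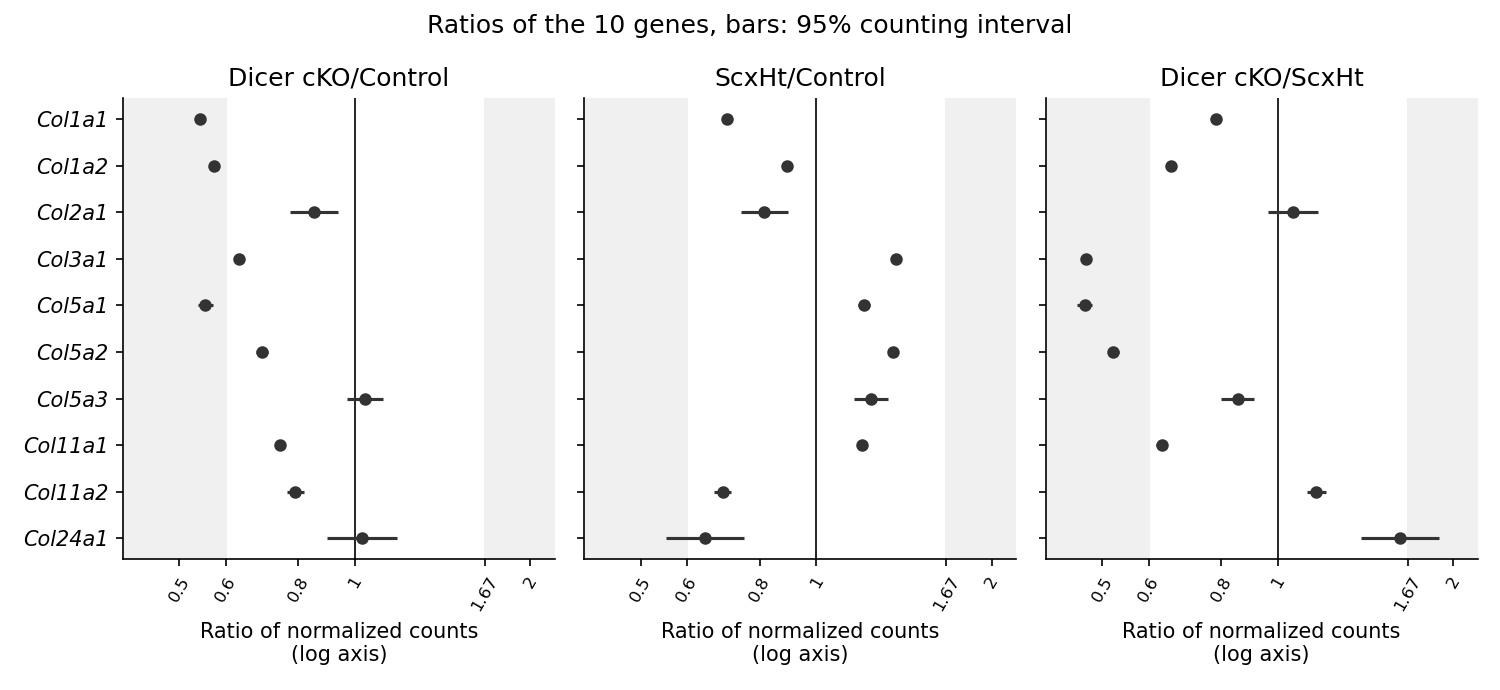
Ratio of normalized counts of the 10 genes (horizontal axis, logarithmic) in each comparison, with the 95% counting interval as bars and the ranges past 0.60 and 1.67 shaded. In Dicer cKO/Control the points of Col1a1, Col1a2 and Col5a1 lie in the lower shaded range, in Dicer cKO/ScxHt those of Col3a1, Col5a1 and Col5a2, and in ScxHt/Control no point is shaded.

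Muscle, nerve and blood markers stood higher in the Dicer cKO library than in Control. The counts below stand beside 3.87% of all features that were higher and 4.17% that were lower. Of 20 skeletal muscle genes, 13 were called higher and none lower, with a median ratio of 1.85, and Ttn had 688745 reads in Control and a ratio of 1.60 (1.60 to 1.61). Of 7 Schwann cell genes above the minimum, 6 were higher, and of 5 erythroid genes 5 were higher. Mitochondrial features held 3.45% of counts in Control, 2.12% in ScxHt and 4.43% in Dicer cKO. Of 7 adipocyte genes 0 were higher and 1 lower (Lep), of 7 macrophage genes 0 were higher and 1 lower (C1qb), and of 6 endothelial genes 0 were called in either direction. Of 10 tendon fibroblast markers 4 were lower (Fmod, Thbs4, Cilp2 and Scx), of 5 cartilage markers above the minimum 3 (Chad, Acan and Sox9), and of 3 bone markers 2 (Spp1 and Ibsp). Fmod, Thbs4, Scx and Sox9 are also in the lists of collagen pathway genes described next. The part of other tissues in the collagen ratios was not tested beyond the scaling without the muscle list and mitochondrial features.

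The genes that fold, trim and crosslink procollagen were then set beside the collagens. Of 28 such genes, 6 were lower and 0 higher in Dicer cKO/Control, with a median ratio of 0.726, close to the median ratio of 0.718 over the 10 collagen genes. Over all features, 4.17% were lower and 3.87% higher in this comparison. The lowest were Pcolce2, a procollagen C-proteinase enhancer, at 0.436 (0.409 to 0.465), Plod2, the lysyl hydroxylase of collagen telopeptides, at 0.445 (0.426 to 0.464), and P3h2, a prolyl 3-hydroxylase, at 0.505 (0.481 to 0.530). Lox, which oxidizes lysines for crosslinks, had 19679 reads in Control, 21890 in ScxHt and 10378 in Dicer cKO and a ratio of 0.548 (0.535 to 0.561). The prolyl 4-hydroxylase subunits P4ha1 and P4hb had higher ratios, at 0.903 (0.884 to 0.923) and 0.909 (0.881 to 0.937), and the collagen chaperone Serpinh1 at 0.859 (0.838 to 0.881). The amine oxidase Loxl2 had a ratio of 0.730 (0.715 to 0.744). Adamts14, a procollagen N-proteinase with 151 reads in Control, was the highest at 1.40 (1.13 to 1.74). In ScxHt/Control 1 of 28 was higher (P4hb, 1.70) and 0 lower, against 3.05% and 4.73% of all features, with a median ratio of 1.13. In Dicer cKO/ScxHt 12 were lower and 1 higher (Adamts14, 1.78), against 5.68% and 7.67% of all features, with a median ratio of 0.637. The same shares over all features stand beside the counts of the lists that follow. With the scaling that leaves out mitochondrial features and the muscle list, 4 of 28 were lower in Dicer cKO/Control and 6 in Dicer cKO/ScxHt. P4ha1 and P4hb then moved to just above 1 in Dicer cKO/Control. Over all features, this scaling gave 313 of 13608 lower in Dicer cKO/Control and 552 of 13647 in Dicer cKO/ScxHt.

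Genes for proteins of the fibril surface and of fibril assembly were compared in the same way. Of 16 such genes, 7 were lower and 0 higher in Dicer cKO/Control, against 4.17% and 3.87% of all features, with a median ratio of 0.668. The small proteoglycan Prelp was the lowest at 0.166 (0.157 to 0.175), with 9313 reads in Control, 8716 in ScxHt and 1486 in Dicer cKO. Fmod, a proteoglycan that limits fibril growth, had a ratio of 0.455 (0.450 to 0.460), and Comp, a pentameric matrix protein that binds collagen, of 0.461 (0.449 to 0.474). Dcn, at 0.542 (0.535 to 0.550), and the matrix glycoprotein Fn1, at 0.505 (0.498 to 0.513), were also called. Sparc, which chaperones collagen outside the cell, was the most abundant of the list, with 327276 reads in Control and a ratio of 0.677 (0.673 to 0.680). Bgn and the fibril-associated collagens Col12a1 and Col14a1 were the highest, at 0.875, 0.852 and 0.814. In ScxHt/Control 1 of 16 was higher (Bgn, 1.72) and 0 lower, with a median ratio of 1.30, and in Dicer cKO/ScxHt 12 of 16 were lower and 0 higher, with a median ratio of 0.519. Without mitochondrial features and the muscle list in the scaling, 6 were lower in Dicer cKO/Control and 12 in Dicer cKO/ScxHt.

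Of 11 transcription factors known to act on fibrillar collagen genes, 9 passed the minimum in Dicer cKO/Control, and 4 were lower and 0 higher. Over all features, 4.17% were lower and 3.87% higher. Sox9, which drives Col2a1 and Col11a2 in cartilage, had 527 reads in Control, 400 in ScxHt and 130 in Dicer cKO and a ratio of 0.256 (0.210 to 0.311). The tendon factor Scx, whose own locus is altered by the knock-in in ScxHt and Dicer cKO, had a ratio of 0.365 (0.324 to 0.411). Egr1, an immediate early gene, had 2217, 635 and 772 reads and a ratio of 0.362 (0.333 to 0.393), and it was called lower in ScxHt/Control also, at 0.274 (0.251 to 0.300). Creb3l1, a factor for type I collagen in bone, had a ratio of 0.470 (0.434 to 0.509). The tendon factor Mkx at 0.913 (0.857 to 0.972) and the TGF-beta mediator Smad3 at 0.876 (0.817 to 0.939) were between the thresholds, and Sox6 and Runx2 had ratios of 1.09 and 1.09. Sp7 and Egr2 stayed under the minimum. In ScxHt/Control 0 of 9 were higher and 1 lower, and in Dicer cKO/ScxHt 0 were higher and 3 lower (Sox9, Creb3l1 and Scx). Without mitochondrial features and the muscle list in the scaling, 4 were lower in Dicer cKO/Control and 2 in Dicer cKO/ScxHt. Mkx then moved to just above 1 in Dicer cKO/Control.

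Of 14 genes for collagen receptors and collagen breakdown, 11 passed the minimum. In Dicer cKO/Control 1 was lower and 0 higher, against 4.17% and 3.87% of all features. It was the alpha 11 integrin chain Itga11 at 0.577 (0.525 to 0.633), and the median ratio of the 11 was 0.763. The uptake receptor Mrc2 had a ratio of 0.630, the receptor tyrosine kinase Ddr2 of 0.739 (0.716 to 0.763), and the membrane protease Mmp14 of 0.731 (0.661 to 0.808). Itgb1, the common beta chain, at 0.947 (0.920 to 0.974) and Itga10 at 1.04 (0.945 to 1.14) were near 1. The collagenases Mmp8, Mmp9 and Mmp13 had at most 7 reads in any library. In ScxHt/Control 0 of 11 were called in either direction, and in Dicer cKO/ScxHt 4 were lower (Ctsk, Itga2, Mmp14 and Mrc2) and 0 higher. Without mitochondrial features and the muscle list in the scaling, 0 were lower in Dicer cKO/Control and 1 in Dicer cKO/ScxHt. Itgb1 then moved to above 1 in Dicer cKO/Control.

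**Figure D5:**
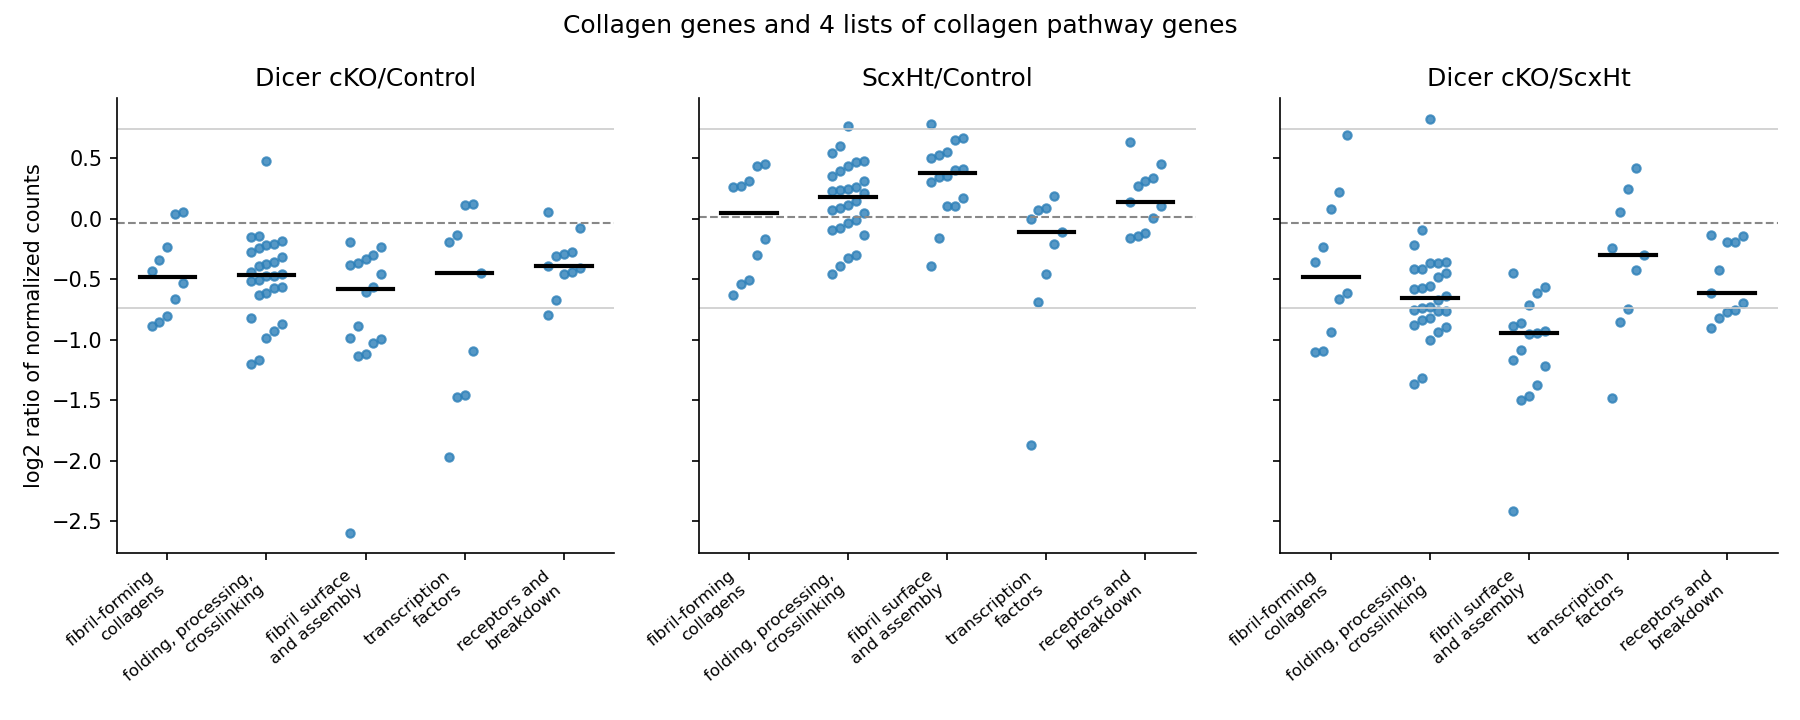
log2 ratio of normalized counts (vertical axis) of the 10 collagen genes and of the genes of the 4 lists that passed the minimum, in each comparison, with 1 point per gene, the median as a black bar, the median of all features as a dashed line and the thresholds as grey lines. In Dicer cKO/Control the median ratio of the collagen genes is 0.718 and that of the lists 0.668 to 0.763, all below the median of all features.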

How the data were processed

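RNA-seq and small RNA-seq were made from Achilles tendon total RNA of 3 genotypes with 1 library each. According to the methods, the authors trimmed adaptors from paired-end reads, mapped them to GRCm38 (mm10) with TopHat and Bowtie2 and counted them per gene with HTSeq, and they deposited these counts without normalization. The authors' processing notes name DESeq2 also. The RPKM values deposited beside the counts rest on the same reads. Versions, annotation release and strand setting are not given in the sources used here. In each library 605 to 763 features with no count carry an RPKM above 0, so these values do not follow from the counts.

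The full table of 54189 features was used, with 463 lines that repeat another line. Size factors came from DESeq2 1.42.0 in R 4.3.3 on the 2 libraries of a comparison, and ratios, exact (Clopper-Pearson) 95% intervals and searches from scipy 1.17.1, pandas 2.3.3 and numpy 2.4.6 under Python 3.11.15. Plots used matplotlib 3.10.9. No shrinkage, dispersion model or p-value was used, since each genotype had 1 library. A baseMean above 50 (above 15 in small RNA-seq) and ratios above 1.67 or below 0.60 follow the study's methods. Small RNA-seq counts added up to between 8435829 and 10986541. Interval coverage was tested on counts simulated with random sampling of reads alone. The simulation held no repeated reads and no spread between mice, so it checks the calculation only. RPKM served for levels within a library, and the lengths behind it agreed between libraries within 1% for 99.5% of 12649 features with over 50 counts in each.

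The 10 genes, the 4 pathway lists and the 9 marker lists were chosen with earlier results of these data known. Named were all 10 genes, Col27a1, the miR-29 loci, for each pathway list up to 4 genes with the most Control counts and the 3 lowest and 3 highest Dicer cKO/Control ratios, and up to 3 marker genes per list by Control counts. Other genes, such as Lep, C1qb, Ctsk and Itga2, were named after their values were seen, and values of the lists without muscle and mitochondrial genes in the scaling were added then too. Gene models and 3' UTRs came from GENCODE vM21 and miRNA sequences from RefSeq. Alternatives were edgeR 4.0.16 TMM, total counts, size factors of the 3 libraries together, total counts less large or less mitochondrial and muscle features, other count minimums, thresholds of 2 and 0.5, the whole interval, a pseudocount of 1, RPKM, other lengths, and, chosen after seeing the data, the table without repeated lines.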

Additional observations from a re-analysis of the deposited data

How the results depend on the processing

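No paired analysis was possible because each genotype had 1 library per assay, and for the same reason no library could be left out of a comparison. The 3 genes called lower in Dicer cKO/Control became 0 with scaling to total counts without mitochondrial features and the skeletal muscle list, and 0 with thresholds of 2 and 0.5. They became 2 with total counts or with RPKM, where Col1a2 lay just above 0.60, and the 3 in Dicer cKO/ScxHt became 2 with thresholds of 2 and 0.5 (without Col5a2). With the former scaling, 1 gene was called higher in Dicer cKO/ScxHt (Col24a1, 1.73) in place of 0. That scaling moved the median log2 ratio of all features to 0.13 in Dicer cKO/Control, and total counts moved it to 0.12 in ScxHt/Control. A change of scaling moves all genes alike, so the 10 genes keep their distance to the other features by construction. The calls over all features in Dicer cKO/Control split into 523 higher and 563 lower, into 673 and 441 with total counts, into 669 and 444 with RPKM and into 970 and 313 without mitochondrial and muscle features. In ScxHt/Control the split was 414 and 641, and 638 and 452 with total counts or 640 and 464 with RPKM. In Dicer cKO/ScxHt it was 1039 and 770, and 916 and 971 with total counts, 914 and 965 with RPKM and 1319 and 552 without mitochondrial and muscle features. A minimum baseMean of 10 gave 1563 higher and 1434 lower features in Dicer cKO/Control, one of 200 gave 160 and 239, no minimum 5392 and 5495, thresholds of 2 and 0.5 gave 215 and 216, and the whole interval past the threshold 164 and 184. The type I share of 95.3% in Control was 94.8% by the longest transcript and 94.3% by raw counts, that of 92.3% in ScxHt was 91.7% and 90.9%, and that of 94.3% in Dicer cKO was 93.8% and 93.2%. For Mir29a, Dicer cKO/Control was 0.718 with total counts and 0.654 with TMM, and ScxHt/Control was 0.970 and 0.876. The other miR-29 loci move by the same factor in each comparison and scaling. The cause of these differences was not tested. Low counts limit Col24a1 most, whose counting intervals are the widest of the 10.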
